A study of Mus musculus with 12 samples.

Results

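The genes described here encode subunits and assembly factors of the respiratory chain and ATP synthase, proteins of the mitochondrial ribosome, and translocases of the mitochondrial membranes. They were chosen by name: a probe set is a member where the platform annotation gives it exactly 1 gene symbol and that symbol begins with Nduf, Cox and a digit, Uqcr, Atp5, Sdh, Mrpl, Mrps, Timm or Tomm. Of 11868 probe sets on the array, control probe sets aside, 75 met the rule, and they stand for 58 of the 5928 genes that the array names by a probe set of their own. A further 4 probe sets carried such a symbol together with that of another gene and were left out. A few genes named by the rule only assist these complexes, such as the assembly factors Sdhaf2, Sdhaf3 and Ndufaf3.

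Expression was measured in mouse hippocampus on 12 Affymetrix murine U74 arrays (the C array), in 4 groups of 3. Control littermates and mutant mice lacking the transcription factors CREB and CREM were injected intraperitoneally with saline or with kainate, an agonist of a class of glutamate receptors that provokes seizures, at 20 mg/kg, and were killed 1 h later. All mice, of both sexes, were 5 to 6 weeks old, and all were housed singly and handled for 5 days. Each array holds RNA pooled from 3 animals, so every p-value reflects the spread between pools. The alleles of the controls and mutants, and the promoter or cells in which any recombinase acted, are not stated in the sources used. In whole tissue, fewer cells of a type and less RNA per cell cannot be told apart.

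Complexes I to IV of the inner membrane pass electrons from NADH and succinate to oxygen. Complexes I, III and IV also pump protons, and ATP synthase uses the proton gradient to make ATP. Most of their subunits are encoded in the nucleus, made in the cytosol and brought in by the TOM complex of the outer membrane and the TIM complexes of the inner membrane. The few subunits encoded by mitochondrial DNA are made on the mitochondrial ribosome, whose proteins also come from nuclear genes. In the hippocampus much of this ATP pays for restoring ion gradients after synaptic activity.

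Values are log2 GCRMA signals, and a difference is a difference of log2 group means with its standard error (SE) from limma. Only probe sets at log2 4 or more on at least 3 of the 12 arrays were tested. Of the 75 members 30 passed this filter (40%), from 26 genes, against 3541 of all 11868 probe sets (29.8%). Complex I had 9 tested probe sets of 18, complex II 3 of 5, complex III 0 of 2, complex IV 2 of 13 and ATP synthase 1 of 4. The large subunit of the mitochondrial ribosome had 7 of 14, the small subunit 4 of 10, the inner membrane translocases 1 of 3 and the outer membrane translocases 3 of 6.

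The arrays differ in ways that the groups do not explain. Mutant kainate replicate 3 is a weak array, with a 90th percentile of the tested signals of 7.37 against 8.12 to 8.39 on the other 11. The array labelled control kainate replicate 3 reads like most mutant arrays for astrocyte filament gene Gfap (12.95, against 11.51 and 11.53 on the others of its group). Mutant kainate replicate 3 read 11.55 for Gfap, within the 10.75 to 11.59 of the other control arrays. The other mutant arrays read 12.23 to 13.03. On the same arrays microglial Laptm5 read 10.44 and 8.67. The other controls read 9.10 to 9.64 for it and the other mutants 9.78 to 10.31. On the weak array most bright probe sets read low. Of those at log2 8 and above, 92.4% lay below the mean of replicates 1 and 2 of its group (median -0.95). Its low Gfap and Laptm5 cannot be told apart from this. For the microglial markers Cx3cr1 and P2ry12 controls and mutants overlapped. Control kainate replicate 3 read 7.69 and 4.98 for them, and replicate 2 of its group 7.59 and 4.85. Whether the labels of control and mutant kainate replicate 3 were exchanged was not tested. Both arrays were kept as labelled and are the doubted arrays named below. Replicate 1 arrays differ together from replicates 2 and 3 and are treated as a batch seen in the data. The signal gap between the 3′ and 5′ actin control probes, a measure of RNA integrity, was 1.20, 1.45, 1.36 and 1.20 on the kainate arrays of replicates 2 and 3, and 0.77 to 0.97 on the other 8 arrays. Every kainate difference within replicates 2 and 3 thus sets arrays with a wider gap against saline arrays with a narrower one. The part of RNA integrity in these differences was not tested. Values without the weak array, or within replicate 1 and within replicates 2 and 3, stand beside the results that they move most. The array does not show the loss of the deleted factors. The tested probe set of Creb1 read 4.77 to 5.00 in controls and 4.83 to 5.11 in mutants. That of Crem read 4.37 to 4.51 in control saline and 4.63 to 4.83 in mutant saline, and after kainate the groups overlapped. Both were dim, and whether these probe sets lie in the deleted parts is not stated in the sources used.

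No member passed the threshold, a Benjamini-Hochberg adjusted p under 0.05 from limma, in any of the 7 comparisons made. The share of all tested probe sets that did was 0.0282% for kainate in control mice, 0.0282% for kainate in mutant mice, 0% for genotype after saline, 0% for genotype after kainate, 0.141% for kainate averaged over genotypes, 0% for genotype averaged over treatments and 0% for the interaction of genotype and kainate. At an unadjusted p under 0.05, members numbered 0 of 30 for kainate in control mice (4.46% of all tested), 7 for kainate in mutant mice (8.47%), 4 for genotype after saline (12.1%) and 4 for genotype after kainate (4.72%). They numbered 7 for kainate averaged over genotypes (11.3%), 7 for genotype averaged over treatments (19.1%) and 0 for the interaction (0.875%). A p that misses the threshold does not show that the genes kept their level, and the values follow by role.

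The promoters of 4 members are shown because CREB and CREM bind the cAMP response element, and because these genes are described at length in the sections that follow or carry that element. They are the 120 bases before the annotated start, from RefSeq on GRCm38.p6, in the direction of transcription, with motif matches in capitals. Ndufb2 (chr6:39592445-39592564, plus strand) holds a full element. Tomm70a (chr16:57121594-57121713, plus strand) holds the core of the ETS motif on both strands. Mrpl50 (chr4:49521084-49521203, minus strand) holds the 5-base core of the element. Ndufs4 (chr13:114388095-114388214, minus strand) holds none of the letters searched.
Ndufb2: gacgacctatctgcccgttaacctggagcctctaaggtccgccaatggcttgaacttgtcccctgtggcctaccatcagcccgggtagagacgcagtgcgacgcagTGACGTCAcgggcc
Tomm70a: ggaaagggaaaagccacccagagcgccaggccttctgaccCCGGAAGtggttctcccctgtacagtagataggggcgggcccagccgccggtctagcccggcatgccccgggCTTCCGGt
Mrpl50: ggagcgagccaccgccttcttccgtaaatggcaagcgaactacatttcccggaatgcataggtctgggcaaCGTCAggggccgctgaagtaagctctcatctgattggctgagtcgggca
Ndufs4: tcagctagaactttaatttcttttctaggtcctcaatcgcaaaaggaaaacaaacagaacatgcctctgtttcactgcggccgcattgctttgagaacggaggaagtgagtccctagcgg

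Windows of 300 bases, 250 before the start and 50 after it, were searched on both strands for 50 member genes with a promoter in the table. Of these genes 22 were tested on the array. The full element, TGACGTCA, stood in 1 of the 50 (2%), Ndufb2, against 2.03% of 27025 genes in all, which is 1 of the 22 tested (4.55%) against 3.38% of 1925 tested genes. That core alone, TGACG, which the full element contains, stood in 21 of 50 (42%, against 23% of all genes) and in 9 of 22 (40.9%, against 34.6% of tested genes). For the core of the ETS motif, CCGGAAG, bound by the respiratory gene activator GABP among others, the counts were 19 of 50 (38%, against 9.93%) and 7 of 22 (31.8%, against 16.1%). The core of the NRF1 motif, TGCGCATGC, stood in 2 of 50 (4%, against 1.72%) and in 0 of 22 (against 3.38%). A match describes letters in the window and shows no binding. For Ndufs1 and Mrpl38, described below, no window is printed.

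Complex I accepts electrons from NADH, and Ndufs4, 1 of its members, had the widest fitted genotype difference of the 30 tested probe sets when averaged over treatments. This accessory subunit, whose loss in mice causes a fatal encephalopathy, read 6.87, 7.20 and 6.98 in control saline and 7.15, 6.97 and 6.46 in control kainate. In mutant saline it read 6.31, 5.95 and 6.63, and in mutant kainate 6.65, 5.96 and 4.46. All mutant saline arrays lay below all control saline arrays, while after kainate the groups overlapped through control replicate 3 and mutant replicate 1. Averaged over treatments, Ndufs4 was lower in mutants by 0.95 ± 0.33 (SE, 1.93-fold; adjusted p = 0.247, unadjusted p = 0.0185, limma). Without the weak array the difference was -0.64 ± 0.19 (adjusted p = 0.356). It was -0.53 in replicate 1 alone and -1.15 in the other replicates. Without both doubted arrays and with replicate 1 against 2 and 3 as a block it was -0.74 ± 0.18 (adjusted p = 0.136). Kainate averaged over genotypes gave -0.38 ± 0.33 for it, and -0.07 ± 0.19 without the weak array.

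Ndufs1, the iron-sulphur subunit that carries electrons from the flavin site, was read by 2 probe sets. The brighter read 8.25, 8.61 and 8.25 in control saline, 8.38, 7.20 and 7.28 in control kainate, 8.33, 7.97 and 8.27 in mutant saline and 8.23, 6.65 and 4.96 in mutant kainate. The kainate arrays of replicates 2 and 3 were low in both genotypes, and those of replicate 1 were level with saline. Kainate averaged over genotypes gave -1.16 ± 0.48 (adjusted p = 0.403), the largest fitted kainate difference among the members, and -0.75 ± 0.32 without the weak array. Within replicate 1 the value was 0.02 and within replicates 2 and 3 it was -1.75. The low arrays are the 4 with the wider actin 3′ to 5′ gap, and the part of RNA integrity in this was not tested. The dimmer probe set ran from 4.84 to 6.48, with a kainate difference of -0.29 ± 0.24, and followed the first across arrays (r = 0.92 over 12 arrays after removing group means, 0.87 without the weak array).

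Ndufb2, an accessory subunit of the membrane arm and the member with the full cAMP response element, was nearly level. It read 5.48, 5.37 and 5.40 in control saline, 5.44, 5.55 and 5.62 in control kainate, 5.39, 5.45 and 5.39 in mutant saline and 5.34, 5.38 and 5.01 in mutant kainate. After kainate all mutant arrays lay below all control arrays, by 0.29 ± 0.10 (adjusted p = 0.55, unadjusted p = 0.0124, limma), or by 0.18 ± 0.06 without the weak array. Its interaction with kainate, like that of all members, did not pass the threshold. The name of its probe set carries the suffix (_f_at) by which Affymetrix marks probes shared within a sequence family, so other transcripts may add to it. The same holds, among others described below, for the brighter probe set of Sdhaf2 and those of Mrpl46, Mrps18a, Mdh1 and Tfam.

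Ndufab1, the acyl carrier protein that also serves mitochondrial fatty acid synthesis, went the other way by a small amount. It read 4.64, 4.51 and 4.61 in control saline and 4.76, 4.94 and 4.80 in mutant saline, with no overlap. Averaged over treatments the mutants were higher by 0.17 ± 0.05 (adjusted p = 0.247), and by 0.15 ± 0.05 without the weak array. Dim probe sets across the array were slightly higher in the mutant saline group, as described below.

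The other members of complex I were lowest on the weak array. Ndufs8, an iron-sulphur subunit next to the quinone site, ran from 8.72 on the weak array to 10.22 and had a genotype difference of -0.21 ± 0.19, which was -0.04 ± 0.10 without that array and 0.08 within replicate 1. Ndufa12 and Ndufb1, accessory subunits, ran from 4.66 to 6.48 and from 4.66 to 6.82, each with its lowest value on the weak array. Ndufaf3, an assembly factor, was lower in mutants after kainate by 0.59 ± 0.24 (adjusted p = 0.55), with overlapping groups, and by 0.28 ± 0.14 without the weak array. Over the 9 probe sets of complex I, 8 were lower in mutants averaged over treatments, with a median of -0.27, and 7 with a median of -0.09 without the weak array. Bright probe sets of the whole array were similar: 81% of those with a mean at log2 6 to 8 were lower (median -0.25) and 88.9% of those at log2 8 and above (median -0.24), while over all tested the share was 51.1%.

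**Figure D1:**
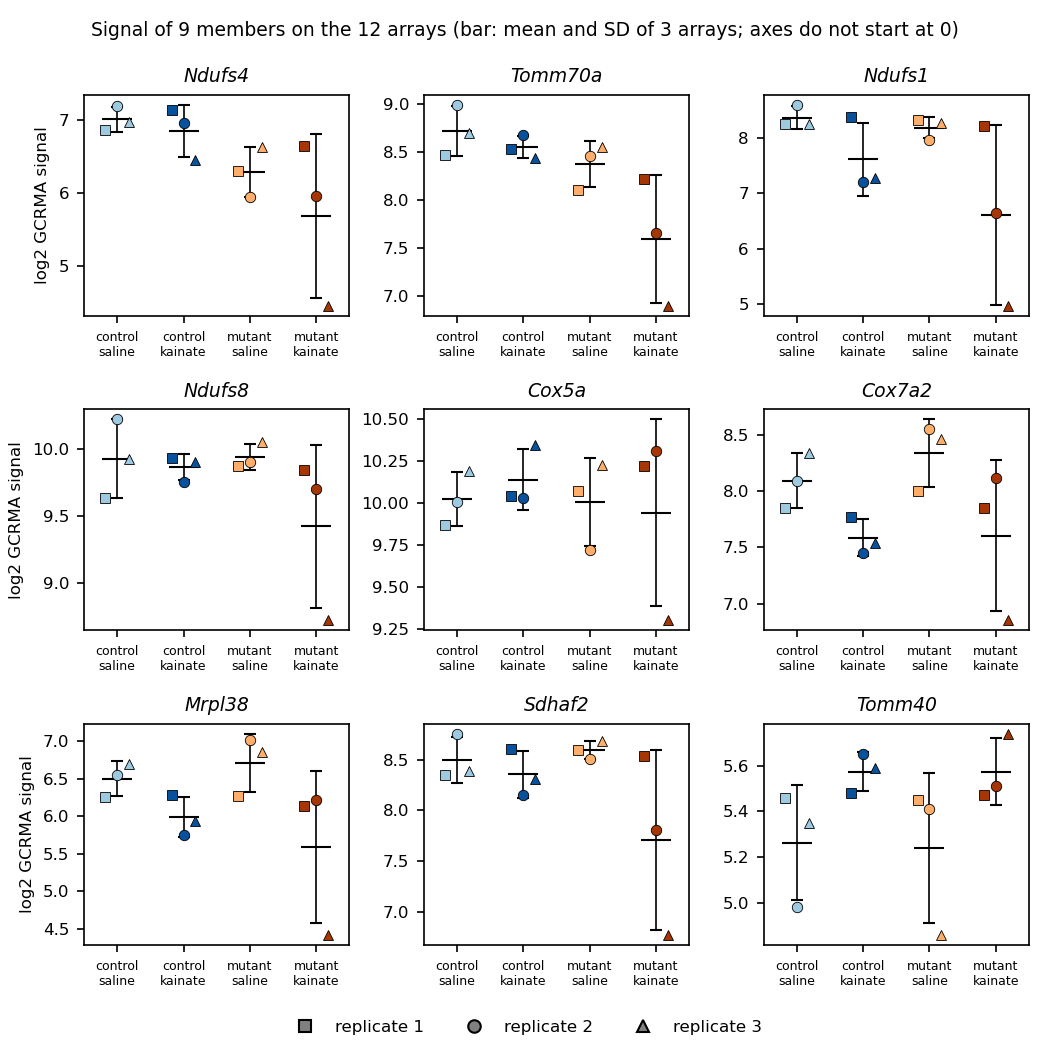
Log2 GCRMA signal of 9 members on each array by group, with a symbol for each replicate number; horizontal and vertical bars give the mean and SD of 3 arrays, and the vertical axes do not start at 0. Ndufs4 is low in mutant saline, the kainate arrays of replicates 2 and 3 are low for Ndufs1 (its brighter probe set), and mutant kainate replicate 3 is the lowest of its group for each of the 9 except Tomm40.

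Complex II, succinate dehydrogenase, was measured above the filter only through assembly factors. Sdhaf2, which helps attach the flavin cofactor, read 8.35, 8.76 and 8.39 in control saline, 8.61, 8.15 and 8.31 in control kainate, 8.60, 8.51 and 8.69 in mutant saline and 8.54, 7.81 and 6.77 in mutant kainate on its brighter probe set. Kainate in mutant mice gave -0.89 ± 0.36 (adjusted p = 0.579, unadjusted p = 0.0354), and -0.42 ± 0.22 without the weak array. Its dimmer probe set stayed between 4.16 and 4.28 on all arrays, and the correlation between both after removing group means was -0.32. Sdhaf3, another assembly factor, read 4.23, 4.22 and 4.24 in control saline and 4.33, 4.51 and 4.37 in mutant saline, and averaged over treatments the mutants were higher by 0.16 ± 0.05 (adjusted p = 0.247). This was 0.13 ± 0.05 without the weak array, 0.03 within replicate 1 and 0.22 within replicates 2 and 3.

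Complex III was represented by Uqcrh, the hinge subunit that holds cytochrome c1, on 2 probe sets that never came near the filter (highest value 3.28). No statement on complex III can be made from these arrays.

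Complex IV, cytochrome c oxidase, passes electrons to oxygen. Cox7a2, the subunit form found in most tissues, read 7.85, 8.09 and 8.34 in control saline, 7.77, 7.45 and 7.54 in control kainate, 8.0, 8.56 and 8.47 in mutant saline and 7.85, 8.12 and 6.85 in mutant kainate. In control mice all kainate arrays lay below all saline arrays, and in mutants replicate 2 after kainate overlapped with saline. Averaged over genotypes the kainate arrays were lower by 0.62 ± 0.21 (1.54-fold; adjusted p = 0.349, unadjusted p = 0.0169, limma), and by 0.43 ± 0.13 without the weak array (adjusted p = 0.299). Within replicate 1 the difference was -0.11 and within replicates 2 and 3 it was -0.87.

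Cox5a, a structural subunit encoded in the nucleus, differed little between groups. Its values were 9.87, 10.01 and 10.19 in control saline, 10.04, 10.03 and 10.35 in control kainate, 10.07, 9.72 and 10.23 in mutant saline and 10.22, 10.31 and 9.30 in mutant kainate. The kainate difference was 0.03 ± 0.18 and the genotype difference -0.11 ± 0.18, and both were positive without the weak array (0.19 ± 0.11 and 0.05 ± 0.11).

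ATP synthase was seen through Atp5d, the delta subunit of the F1 stalk, at 4.73 to 4.92 on all arrays. The 3 mutant saline arrays (4.79, 4.85 and 4.83) lay above the control saline arrays (4.74, 4.73 and 4.76) by 0.08 ± 0.06 (adjusted p = 0.677). Averaged over treatments the difference was 0.06 ± 0.04, and 0.03 ± 0.03 without the weak array.

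In the large subunit of the mitochondrial ribosome, Mrpl38 had the widest kainate difference. It read 6.25, 6.55 and 6.70 in control saline, 6.28, 5.75 and 5.93 in control kainate, 6.27, 7.01 and 6.85 in mutant saline and 6.14, 6.21 and 4.42 in mutant kainate. In mutants all kainate arrays lay below all saline arrays, with and without the weak array. Kainate averaged over genotypes gave -0.81 ± 0.31 (adjusted p = 0.378, unadjusted p = 0.026, limma), -0.52 ± 0.16 without the weak array, -0.04 within replicate 1 and -1.20 within replicates 2 and 3.

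Mrpl50 was read by 2 probe sets that had the same sign for kainate and opposite signs for genotype. The brighter read 5.89, 6.13 and 5.94 in control saline, 5.91, 5.60 and 5.52 in control kainate, 5.79, 5.82 and 5.95 in mutant saline and 5.79, 5.33 and 4.73 in mutant kainate. The dimmer read 5.20, 5.22 and 5.22, then 5.26, 5.02 and 5.08, then 5.39, 5.68 and 5.43, then 5.23, 5.23 and 5.31 in the same order. In mutants all kainate arrays lay below all saline arrays on both probe sets, although on the brighter the replicate 1 arrays of both groups round to the same value. Averaged over genotypes the kainate difference was -0.44 ± 0.16 (adjusted p = 0.353) and -0.17 ± 0.06 (adjusted p = 0.358), and without the weak array -0.31 ± 0.11 and -0.18 ± 0.07. On the brighter, replicate 1 was nearly level in both genotypes (5.89 and 5.91, 5.79 and 5.79). On the dimmer, replicate 1 was higher after kainate in controls (5.20 and 5.26) and lower in mutants (5.39 and 5.23). Replicates 2 and 3 were lower after kainate in both genotypes on both probe sets. Their kainate arrays are those with the wider actin gap. For genotype averaged over treatments the 2 probe sets gave -0.26 ± 0.16 and 0.21 ± 0.06 (adjusted p = 0.374 and 0.247), and without the weak array -0.12 ± 0.11 and 0.20 ± 0.07. Their residuals did not follow each other (r = 0.01 over 12 arrays).

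Among the other large-subunit proteins, Mrpl46 and Mrpl3 were lower in mutants after kainate by 0.50 ± 0.27 and 0.44 ± 0.23 (adjusted p = 0.55 for both, limma), with overlapping groups. These differences were -0.12 ± 0.10 and -0.17 ± 0.17 without the weak array. Kainate in mutant mice gave -0.44 ± 0.27 for Mrpl46 and -0.32 ± 0.23 for Mrpl3, and -0.06 for each without that array. Mrpl15 ran from 3.95 to 4.22 and Mrpl48 from 4.44 to 4.84, with genotype differences averaged over treatments of 0.11 ± 0.05 (adjusted p = 0.259) and 0.13 ± 0.06 (adjusted p = 0.273). These were 0.08 and 0.10 without the weak array, and 0.01 and -0.03 within replicate 1. In the small subunit, Mrps10 ran from 3.87 to 4.18 and had a kainate difference of 0.03 ± 0.05. The 2 probe sets of Mrps31 gave genotype differences of -0.20 ± 0.16 (the one with the _f_at suffix) and 0.12 ± 0.05 (the other; adjusted p = 0.257), and the latter read 4.20, 4.01 and 4.18 in control saline against 4.33, 4.30 and 4.27 in mutant saline. Their genotype differences were -0.08 and 0.09 without the weak array.

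Of the translocases, Tomm70a was low in mutants and Tomm40 high after kainate, neither past the threshold. Tomm70a, the outer membrane receptor for carrier proteins and their chaperones, read 8.47, 8.99 and 8.69 in control saline, 8.53, 8.67 and 8.44 in control kainate, 8.10, 8.46 and 8.55 in mutant saline and 8.22, 7.66 and 6.90 in mutant kainate. After kainate all mutant arrays lay below all control arrays, and after saline the groups overlapped. The difference after kainate was -0.95 ± 0.29 (1.94-fold; adjusted p = 0.55, unadjusted p = 0.00902, limma), and -0.61 ± 0.21 without the weak array. Averaged over treatments it was -0.65 ± 0.21 (adjusted p = 0.247), or -0.34 in replicate 1 alone and -0.81 in the other replicates, and the interaction with kainate was -0.60 ± 0.41 (adjusted p = 0.973). Without both doubted arrays, with the block, the averaged difference was -0.51 ± 0.15 (adjusted p = 0.233).

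Tomm40, the pore of the TOM complex, was the single member whose 6 kainate arrays all lay above its 6 saline arrays. It read 5.46, 4.98 and 5.35 in control saline, 5.48, 5.65 and 5.59 in control kainate, 5.45, 5.41 and 4.86 in mutant saline and 5.47, 5.51 and 5.74 in mutant kainate. The margin at its narrowest was small, with replicate 1 arrays of all groups between 5.45 and 5.48. The kainate difference averaged over genotypes was 0.32 ± 0.12 (1.25-fold; adjusted p = 0.384, unadjusted p = 0.0284, limma), 0.02 within replicate 1, 0.47 within replicates 2 and 3 and 0.28 ± 0.13 without the weak array.

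Tomm40l, a relative of Tomm40, read 4.51 on the weak array and 5.46 to 5.86 on the others. Timm17b, part of the inner membrane channel for presequence proteins, read 3.75 on the weak array and 4.54 to 4.91 on the others.

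Counting arrays that do not overlap, kainate in control mice had 1 member with all kainate arrays above (Tomm40; 6.02% of all tested probe sets) and 1 with all below (Cox7a2; 4.63%). In mutant mice 1 lay above (Tomm40; 1.67%) and 6 lay below (Ndufa12, Ndufb2, Ndufs8, Mrpl38 and both probe sets of Mrpl50; 8.44%). Over both genotypes, 6 arrays against 6, 1 lay above (0.395%) and 0 below (0.452%). After saline 8 members had all mutant arrays above (29%) and 1, Ndufs4, had all below (5.11%). After kainate 0 lay above (2.43%) and 2, Ndufb2 and Tomm70a, lay below (3.78%). Averaged over treatments 0 members lay above (0.339%) and 0 below (0.339%).

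The 8 members above in mutant saline were Ndufab1, Sdhaf2 (the dimmer probe set), Sdhaf3, Atp5d, Mrpl15, Mrpl50 (the dimmer), Mrps10 and Mrps31 (the _r_at probe set), by 0.04 to 0.29. Their share, 26.7% of 30, is near the 29% of all tested probe sets. The 45 members below the filter showed the same: 35 of them had all 3 mutant saline arrays above the control saline arrays, with a median of 0.04, against 75.2% of the 8327 probe sets below the filter, whose median was also 0.04.

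Averaged over genotypes or treatments, more members were lower than higher after kainate and in mutants. So were most bright probe sets of the whole array, and much of this lean sat on the weak array. For kainate in control mice 12 were higher and 18 lower, with a median of -0.04 (0.01 over all tested probe sets). There the 8 members at log2 6 to 8 had a median of -0.23 (87.5% lower) and the 4 above -0.10 (75% lower). All tested probe sets of those levels had medians of -0.01, with 51.9% and 50.6% lower. In mutant mice 3 were higher and 27 lower (90%), with a median of -0.35. There 73.5% of all tested probe sets were lower (median -0.08), with 80.3% (median -0.37) at log2 6 to 8 and 82.9% (median -0.32) at log2 8 and above. Without the weak array 6 members were higher and 24 lower, with a median of -0.09, against 36.7% of all tested higher and a median of -0.05. For kainate averaged over genotypes 6 were higher and 24 lower (median -0.16; 68.4% of all tested lower, median -0.04), and 8 and 22 without the weak array (median -0.08). Within replicate 1 the kainate median of the members was 0.02 and within replicates 2 and 3 it was -0.34. Over all tested probe sets these medians were 0.00 and -0.07, and at log2 6 to 8 they were 0.02 and -0.32.

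For genotype after saline the members split evenly, 15 higher and 15 lower (median 0.01, all tested 0.04). After kainate 11 were higher and 19 lower in mutants (median -0.33; 53.5% of all tested lower, median -0.03, and -0.44 at log2 6 to 8), and without the weak array 14 and 16 (median -0.02). Averaged over treatments 10 were higher and 20 lower (median -0.17; 51.1% of all tested lower, median -0.01), and without the weak array 14 and 16 (median -0.01). The interaction was negative for 28 of 30 (93.3%, median -0.27) and for 73.5% of all tested (median -0.09), with 82.8% (median -0.34) at log2 6 to 8 and 88.7% (median -0.30) at log2 8 and above. Without the weak array it was negative for 18 members (median -0.07, all tested -0.04).

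**Figure D2:**
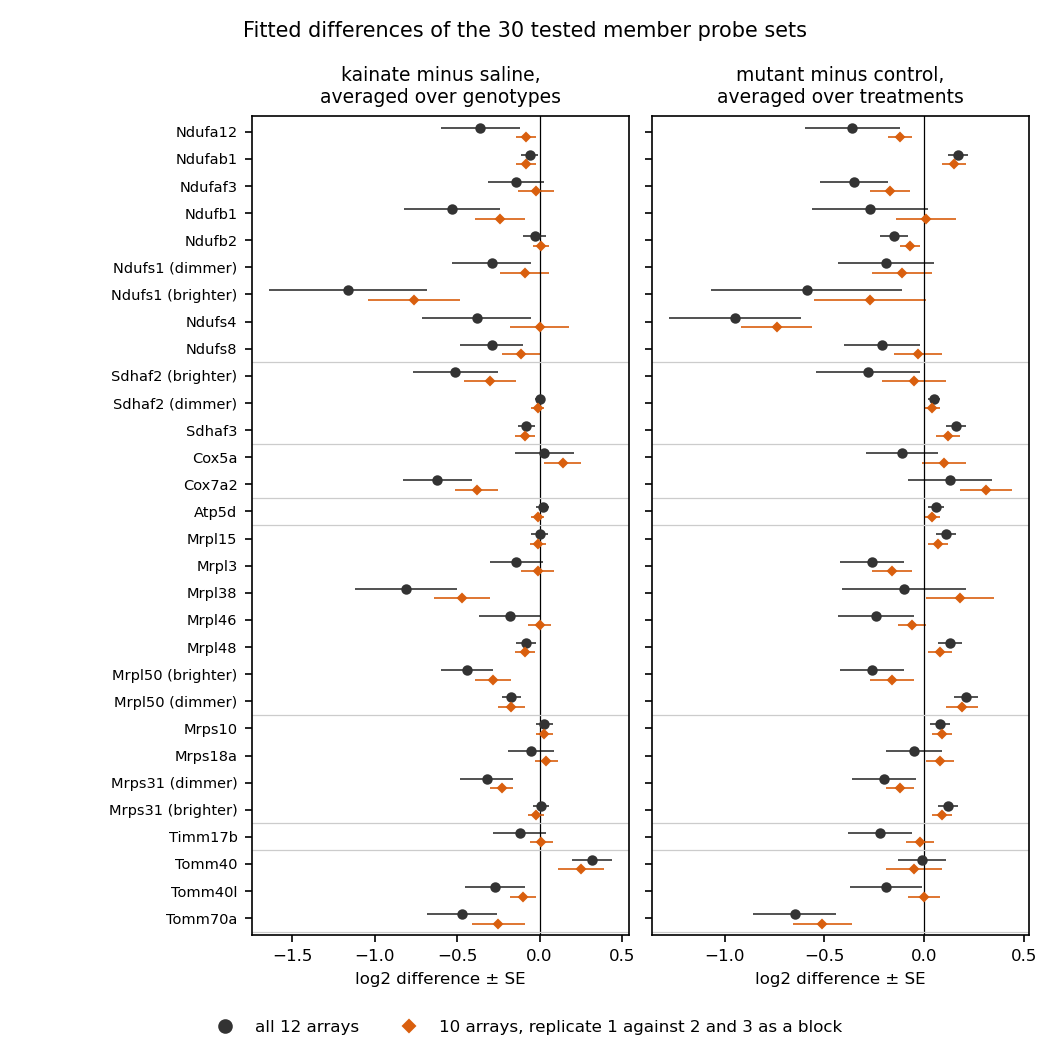
Fitted log2 differences with SE of the 30 tested member probe sets, grouped by role, for kainate averaged over genotypes (left) and genotype averaged over treatments (right). Circles use all 12 arrays, and diamonds leave out the replicate 3 arrays of both kainate groups and block replicate 1 against 2 and 3; most diamonds lie nearer 0, while Ndufs4 and Tomm70a remain low for genotype.

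On the weak array 21 of the 30 members (70%) were lower than on average in replicates 1 and 2 of its group, with a median of -0.88, against 54.4% and -0.06 over all tested probe sets. The size followed the signal level. The 12 members with a mean of log2 6 or more were all lower, with medians of -1.58 for the 8 at log2 6 to 8 and -1.05 for the 4 above, where all tested probe sets of those levels had medians of -0.97 and -0.95. For the 17 members at log2 4 to 6 the median was 0.04, against 0.06 over all tested probe sets of that level. The lowest were the brighter probe set of Ndufs1 (-2.48), Ndufs4 (-1.84) and Mrpl38 (-1.76), and the highest was Tomm40 (0.25). The weak array held the lowest value of 20 of the 30 tested members and the highest of 33 of the 45 below the filter.

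**Figure D3:**
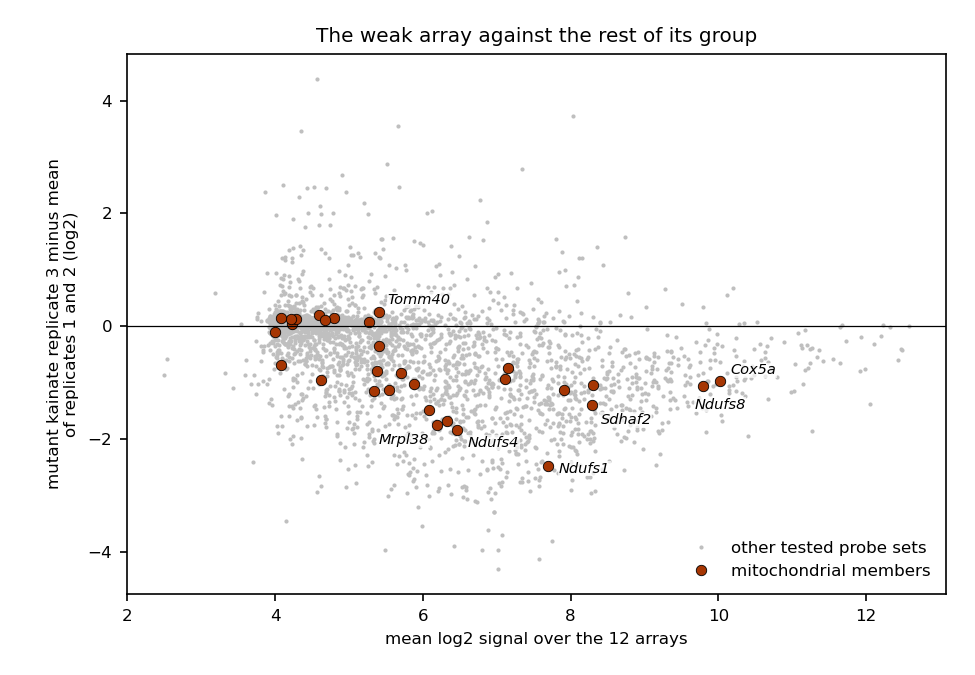
Difference between mutant kainate replicate 3 and the mean of replicates 1 and 2 of its group, in log2, against the mean log2 signal over 12 arrays, for the 3541 tested probe sets. Most members (filled) below a mean of log2 5 are near 0, and the 12 with a mean of 6 or more lie below 0, within the cloud of the other probe sets.

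Replicate 1 arrays read higher than replicates 2 and 3 for 23 of the 30 members after removing group means, with a median of 0.07, and for 18 with a median of 0.02 without the weak array. Over all tested probe sets they read higher for 2108 of 3541 (median 0.02), and for 2210 (median 0.02) without the weak array. The widest gaps were those of Ndufs1, 0.90 (the brighter) and 0.51 (the dimmer), and of Mrps31, 0.43 (the _f_at probe set). They were 0.69, 0.42 and 0.36 without the weak array. The one member with all 4 replicate 1 arrays above all 8 others was Mrps18a, a small-subunit protein (6.78% of all tested probe sets), and 0 members lay below (2.29%). Without the weak array the counts were again 1 (7.03%) and 0 (3.7%). Mrps18a read 7.24, 7.36, 7.21 and 7.49 on the replicate 1 arrays and 6.61 to 7.20 on the others, and its kainate and genotype differences were both -0.05 ± 0.14.

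**Figure D4:**
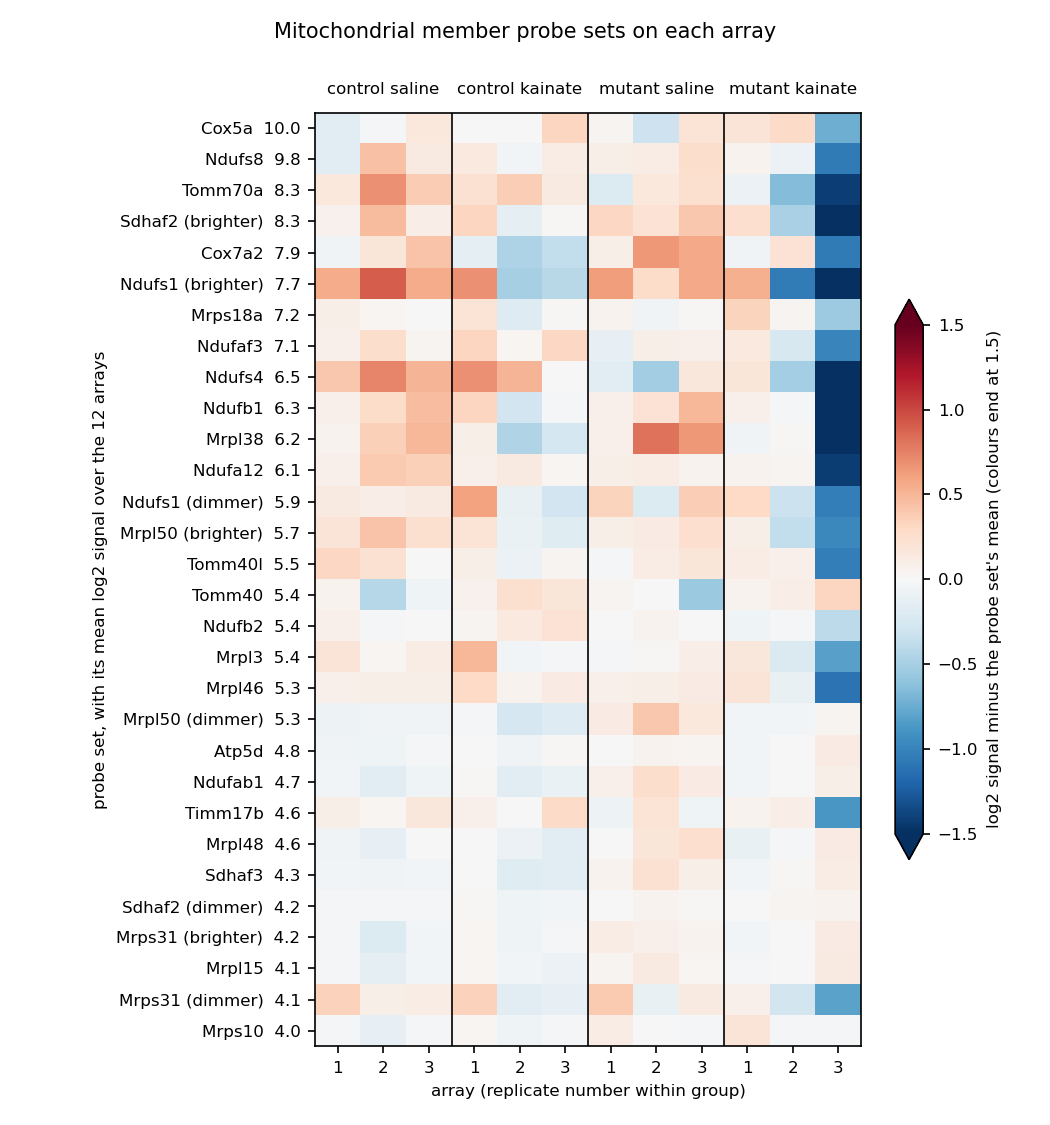
Log2 signal of the 30 tested member probe sets on the 12 arrays, each as its deviation from its own mean over the arrays, ordered by mean signal (printed beside the name). Mutant kainate replicate 3 is low for the members in the upper part, from Cox5a to the brighter probe set of Mrpl50, and most of the dim members in the lower part vary little between arrays.

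Over all 12 arrays members varied together mainly where their signal was high, and without the weak array bright and dim pairs differed much less. After removing group means, the median correlation over the 435 pairs of members across the 12 arrays was 0.49, and 0.03 over all tested pairs, and it was 0.17 and 0.06 without the weak array. Pairs of members both at log2 6 or more had a median of 0.85, and of 0.38 without that array, while pairs both below log2 6 had -0.02 and 0.25. Within complex I the median over 36 pairs was 0.78, and 0.21 without the weak array. These pairs share arrays and signal level, and the values are descriptions. The correlation over all tested pairs was not split by signal level, so it is no match for the bright pairs.

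The 45 members below the filter gave no level to compare between groups. For 42 of them no array reached log2 4, and the others did so on 1 or 2 arrays. They include most of complex IV (11 probe sets, among them the copper assembly factor Cox11 and the subunit Cox6b1), Sdhd, Atp5g2, Atp5j2, Timm50, Tomm20 and Tomm22, all well known to be expressed in brain, so a low value here describes the probe set and is no sign of an absent transcript. Mrps11 read 5.03 on the weak array and 1.94 to 2.43 on the other 11. Mrps18a, Mrps11, Ndufs8, Ndufaf3, Mrpl3, Mrpl46 and the members named in this paragraph were chosen after their values were seen.

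Neighbouring mitochondrial genes that the symbol rule does not take in were measured by few probe sets, and none passed the threshold for either averaged effect. Of the TCA cycle and pyruvate dehydrogenase list, 4 probe sets of 4 genes were tested. Mdh1, a cytosolic malate dehydrogenase that exchanges reducing equivalents with mitochondria, read 8.46, 8.69 and 8.54 in control saline, 8.40, 8.44 and 8.31 in control kainate, 7.88, 7.99 and 8.28 in mutant saline and 8.28, 7.77 and 6.56 in mutant kainate. All 6 mutant arrays lay below all 6 control arrays, by 0.68 ± 0.25 (adjusted p = 0.247), and by 0.43 without the weak array. Of the list for mitochondrial transcription and biogenesis 5 probe sets were tested: Ppargc1b, a co-activator of respiratory genes, gave -0.46 ± 0.20 (adjusted p = 0.261) and Tfam, which packages mitochondrial DNA, -0.52 ± 0.34 (adjusted p = 0.404) for genotype. They were -0.33 and -0.20 without the weak array. Within replicate 1 the values were -0.10 and 0.08, and within replicates 2 and 3 -0.64 and -0.82. Of 4 tested carriers, porins and chaperones, Hspa9, the matrix motor of protein import, gave 0.24 ± 0.12 for kainate (adjusted p = 0.492). This was -0.06 within replicate 1 and 0.39 within replicates 2 and 3. Of 3 tested import probe sets outside the rule, Mtx3, of the outer membrane, gave 0.21 ± 0.08 for genotype (adjusted p = 0.247). Within replicate 1 its value was 0.01, and within replicates 2 and 3 it was 0.31. The list of other respiratory chain genes had 3 tested probe sets and that of mitochondrial translation 2, with medians for genotype of -0.14 and -0.08, and of -0.02 and -0.01 without the weak array.

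Markers of cell types were checked beside these results. Astrocyte markers were measured by 4 of 11 genes, and their summed linear signal ran from 1870 to 3150 in control saline, 2960 to 8180 in control kainate, 4930 to 8270 in mutant saline and 3150 to 8540 in mutant kainate. The high end in control kainate came from control kainate replicate 3 and the low end in mutant kainate from the weak array. The astrocyte sum is nearly all Gfap, which read 10.75 to 13.03 and had a genotype difference of 0.94 ± 0.35 (adjusted p = 0.247). It was the 1 marker of 4 that was higher in mutants, and the other 3 were lower (median of the 4, -0.07), with Apoe and Pla2g7 at -0.07 each. The remaining marker, Slc1a2, read 3.68 to 4.42 on the replicate 1 arrays and 6.54 to 7.73 on the others. For kainate all 4 astrocyte markers were higher (median 0.31), 1 of them lower without the weak array, and none passed the threshold. Slc17a7, the vesicular glutamate transporter of excitatory neurons, read 6.99 to 8.40 on a probe set with the _f_at suffix. Its other probe set read 1.75 to 2.08. Both probe sets of Mbp, the myelin protein, stayed at or below 4.11. The oligodendrocyte markers Olig1 and Ugt8a (its brighter probe set) read 9.64 to 10.73 and 6.80 to 9.38. Oligodendrocyte markers, by 2 of 11 genes, summed to 1960 to 2200 in control saline, 2050 to 2100 in control kainate, 1950 to 2140 in mutant saline and 923 to 2250 in mutant kainate. The 923 came from the weak array, which also held the lowest values of Olig1 and of the brighter Ugt8a probe set. The part of cell composition in the member differences was not tested.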

How the data were processed

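RNA of hippocampus, pooled from 3 animals per array, was measured on 12 arrays in 4 groups of 3. The deposited table holds log2 values that the authors made with GCRMA in R 2.4.1, per the submitters' processing notes. The GCRMA version is not given in the sources used here. These values were used as deposited. In R 4.3.3, limma 3.58.1 (lmFit, contrasts.fit, eBayes) fitted 1 mean per group to all 12 arrays, with 8 residual degrees of freedom, over the 3541 probe sets at log2 4 or more on 3 or more arrays, after 66 control probe sets were left out. P-values were adjusted by Benjamini-Hochberg within each of 7 comparisons, with a threshold of 0.05. The fit was tested on simulated data. Array number, 3 per group, limits precision.

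Members, lists and the naming rule were chosen with earlier results of these data known. Named were members with the largest non-overlapping differences per comparison, the smallest p per role, extremes by array, and genes with 2 tested probe sets. Alternatives covered the filter, normalization, blocks, array weights and each array left out. Fits without both doubted arrays and no block, and without the weak array but with the batch block, were added after seeing the data.

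Groups share replicate numbers. Same-numbered arrays deviated together over all tested probe sets (correlations 0.19 to 0.855) in 3 comparisons but not for kainate in mutant mice (0.479, 0.0448 and -0.0779). The labels give the number no meaning, so the replicate block is an alternative.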

Additional observations from a re-analysis of the deposited data

How the results depend on the processing

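No member passed the adjusted threshold in any of the 7 comparisons under any setting but array weights, limma's down-weighting of variable arrays. With array weights, 1 of 30 members passed for kainate in control mice (113 of all 3541 probe sets) and 16 for kainate in mutant mice (1007). For genotype after kainate 9 passed (477 of all), for kainate averaged over genotypes 13 (1018) and for genotype averaged over treatments 11 (938). The member median for genotype after kainate was -0.01. That fit gave mutant kainate replicate 2 a weight of 28.8 and mutant kainate replicate 3 one of 0.0567, and warned that it had not converged. With no filter the median over 75 members was -0.01 for kainate in mutant mice, 0.05 for genotype after kainate, 0.04 for genotype averaged over treatments and -0.01 for the interaction. Leaving out each array in turn, member medians ran from -0.56 to -0.09 for kainate in mutant mice, -0.50 to -0.02 for genotype after kainate, -0.26 to -0.08 for kainate averaged and -0.26 to -0.01 for genotype averaged, the end nearest 0 always without mutant kainate replicate 3. Without both doubted arrays, medians were -0.02 for genotype after kainate with the batch block, and, without it, -0.02 again and -0.09 for kainate in mutant mice. Without the weak array but with the batch block, genotype after kainate gave -0.01. The replicate block left every median as it was (kainate in mutant mice -0.35) and called no member, with a lowest adjusted p of 0.269. Centring each array on its median moved all tested probe sets by more than 0.1 for kainate in mutant mice (-0.08 to 0.04), where 9 members were then higher and 21 lower (median -0.22). Quantile normalization applied again moved the median for genotype averaged over treatments from -0.17 to -0.03. With 3 pools per group and 45 of 75 members dim, small changes could not be told from the spread.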
